A study of Rattus norvegicus with 9 samples.

Results

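The genes described here encode the enzymes and carriers that take glucose to pyruvate, pyruvate to lactate or acetyl-CoA, and acetyl-CoA through the citrate cycle. There were 41 such genes, out of 15163 named genes on the array. They were taken as a fixed list of symbols, and each probe was assigned through its transcript accession. All 41 had at least 1 probe, 39 were well above background on all 9 arrays, and all 41 entered the 3 comparisons. The exceptions in brightness were Idh3a, above background on 8 arrays, and Slc16a1, above background on 7 arrays, of which 1 was from the sham group.

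Gene expression was measured in whole prostates of male Sprague Dawley rats, which were 6 weeks old at the start, on one-colour Agilent arrays, with 3 arrays for each of 3 groups. The sham group had a sham operation, corn oil and oral water. The BPH group, a model of benign prostatic hyperplasia, was castrated and given 3 mg/kg dihydrotestosterone under the skin each day for 4 weeks, with oral vehicle. The BPH+ghrelin group had the same castration and dihydrotestosterone, and 20 nmol/kg oral ghrelin each day in the final 2 weeks, as the study's methods state, whereas legends of the study give another dose, route or duration. BPH and sham therefore differ by castration and androgen together. The study held 8 rats per group. It gives the group size for the arrays as 3, and names these as 3 rats per group for BPH and BPH+ghrelin. The sources used here do not say which of the 8 rats these were or whether samples were pooled. The tests measure the spread between these samples, part of which may be technical. Sham replicate 3 held the middle value of its group for 29 of 41 members, BPH replicate 2 for 30 and BPH+ghrelin replicate 2 for 30, as they did for 65.1%, 61.7% and 60.6% of all probes. These shares are well above an equal share among 3 arrays. The arrays of a group may thus not vary independently, in which case the adjusted p values would be too small. This was not tested, and the calls left without each of these arrays are given below. Levels are given on the log2 scale after quantile normalization, as mean ± SD with n = 3 arrays per group. Differences are log2 differences from limma with their standard error (SE) and an adjusted p over all genes tested, and a gene was called at an adjusted p under 0.05.

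Glycolysis splits glucose into pyruvate in the cytosol. Pyruvate is either reduced to lactate by lactate dehydrogenase or oxidised to acetyl-CoA by the pyruvate dehydrogenase complex, which the pyruvate dehydrogenase kinases switch off. Citrate synthase then joins acetyl-CoA to oxaloacetate, and the cycle returns the carbon through isocitrate, oxoglutarate, succinate, fumarate and malate. Prostate epithelium is known for making and secreting citrate. In bulk tissue, fewer cells of a type and less RNA per cell cannot be told apart.

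The arrays differed in brightness and in the signal of some tissue markers. The median raw signal ran from 40.9 in sham replicate 2 to 133 in BPH replicate 1, and sham replicate 2 had 61.4% of probes above background against 69.5% or more on the other arrays. Arrays with the same scan date entry in their headers were taken as a slide, which is an inference. The 3 BPH arrays and BPH+ghrelin replicate 1 formed one slide in this sense. BPH+ghrelin replicates 2 and 3 with sham replicates 1 and 2 formed another, and sham replicate 3 stood alone. BPH and sham thus shared no slide. Each of 9 markers of prostate epithelium was above background on some array, and their summed signal was 159652 to 163941 in sham, 87573 to 123337 in BPH and 91376 to 109748 in BPH+ghrelin. That order rests on Pbsn, the androgen-driven secretory gene probasin: without it the sums of the other 8 overlapped, at 72424 to 90617 in sham, 78761 to 105628 in BPH and 70568 to 87277 in BPH+ghrelin, and in BPH against sham 5 of the 9 were higher, with Krt8 called higher by 0.96 and Pbsn called lower. The summed signal of 4 markers of seminal vesicle and coagulating gland, which border the prostate, was 90179 to 157582 in sham, 701 to 28159 in BPH and 508 to 3865 in BPH+ghrelin. The part of these differences in the results below was not tested.

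In BPH against sham, lactate dehydrogenase A, mitochondrial malate dehydrogenase and cytosolic aconitase were higher, and lactate dehydrogenase B and muscle phosphofructokinase were lower. These 5 of 41 members (12.2%) stand beside 4.33% of all genes tested in that comparison, and the 3 higher and 2 lower beside 2.15% and 2.18%. Counting called and uncalled members, 28 of 41 were higher, with a median log2 difference of 0.14 beside 0.04 over all genes, and 18 members (43.9%) had no overlap between the groups beside 31.3% of all genes. With each array scaled to its 75th percentile instead, 21 of 41 were higher, with medians of 0.008 over the members and -0.09 over all genes. At an unadjusted p under 0.05 there were 12 members (29.3%), beside 26.5% of all genes, which is near the background. These counts depend on the arrays and the fit: 0 members were called when the fit held only the 6 arrays compared or took the slide as a block, 0 without BPH replicate 2 and 0 without sham replicate 3. Leaving out BPH replicate 1 or BPH replicate 3 left 1 call each (Pfkm), leaving out sham replicate 2 left 2 (Pfkm and Mdh2), and leaving out sham replicate 1 gave 8.

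In BPH+ghrelin against BPH, limma called 0 of 41 members, beside 1.48% of all genes, of which 0.496% were higher and 0.987% lower. At an unadjusted p under 0.05 there were 7 members (17.1%) beside 21.1% of all genes, and 16 members (39.0%) had no overlap between the groups beside 39.2% of all genes. The median log2 difference was 0.11 over the members and 0.02 over all genes. The member farthest from 0 was cytosolic isocitrate dehydrogenase, at -1.03. In a fit of these 6 arrays alone 1 member was called (Idh3g), and without BPH replicate 3 another was (Idh1).

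In BPH+ghrelin against sham, Ldha and the oxoglutarate dehydrogenase gene Ogdh were higher and Ldhb was lower. These 3 of 41 members (7.32%) stand beside 6.3% of all genes, which is near the background, and the 2 higher and 1 lower beside 3% and 3.3%. With the called members included, 31 of 41 were higher, with a median log2 difference of 0.31 beside 0.04 over all genes. At an unadjusted p under 0.05 there were 19 members (46.3%) beside 23.7% of all genes, and 22 members (53.7%) had no overlap beside 30.4%. This comparison shares its sham arrays with BPH against sham and its BPH+ghrelin arrays with BPH+ghrelin against BPH, so the 3 sets of values are not independent. The number called was 0 without BPH+ghrelin replicate 1, without BPH+ghrelin replicate 2 or without sham replicate 3, and 0 with the slide as a block.

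**Figure D1:**
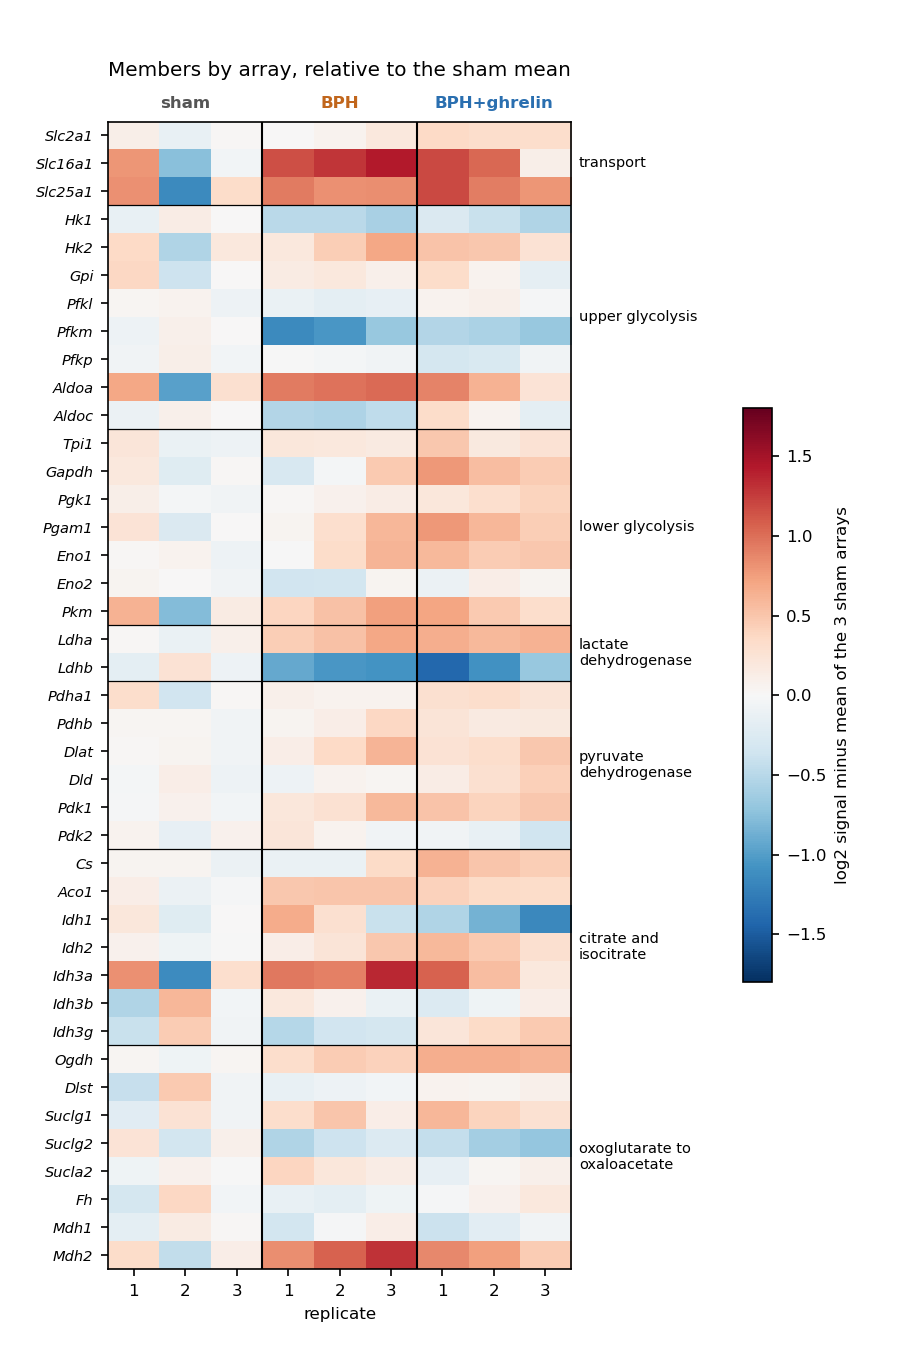
Log2 level of each of the 41 members on each of the 9 arrays, drawn as colour for the log2 difference from that member's mean over the 3 sham arrays, with members in pathway order. Ldhb and Pfkm are higher on the 3 sham arrays than on the other 6, Ldha is higher on the 6 arrays of castrated rats, and Aldoa, Slc16a1, Slc25a1 and Idh3a are lowest on sham replicate 2.

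The promoters of the called members carry different sequences around their start sites. The 4 shown are Ldha and Ldhb, which were called against sham in both comparisons, and Pfkm and Ogdh, which had the smallest adjusted p among members in BPH against sham and in BPH+ghrelin against sham. Each runs 5′ to 3′ from 250 bases before to 50 bases after the gene's start in RefSeq assembly GRCr8, a newer build than the rn4 annotation in the array headers. Ldha lies at chr1:106507842-106508141 on the plus strand, Ldhb at chr4:177177359-177177658 on the minus strand, Pfkm at chr7:131113849-131114148 on the plus strand and Ogdh at chr14:85363781-85364080 on the plus strand. Capitals mark ACGTG on either strand, the core letters of the hypoxia response element, which are also part of CACGTG, the E-box letters bound by Myc family factors.
Ldha: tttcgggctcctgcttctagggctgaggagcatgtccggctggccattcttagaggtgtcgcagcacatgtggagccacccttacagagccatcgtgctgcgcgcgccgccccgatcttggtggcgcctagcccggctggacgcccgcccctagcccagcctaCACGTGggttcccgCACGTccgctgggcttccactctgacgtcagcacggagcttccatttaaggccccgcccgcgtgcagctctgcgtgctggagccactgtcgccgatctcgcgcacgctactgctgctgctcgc
Ldhb: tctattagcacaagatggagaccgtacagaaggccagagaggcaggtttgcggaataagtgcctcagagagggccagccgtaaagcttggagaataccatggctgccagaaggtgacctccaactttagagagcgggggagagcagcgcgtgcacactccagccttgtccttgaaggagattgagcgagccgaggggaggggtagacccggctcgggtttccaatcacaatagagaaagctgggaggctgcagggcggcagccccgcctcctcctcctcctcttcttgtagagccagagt
Pfkm: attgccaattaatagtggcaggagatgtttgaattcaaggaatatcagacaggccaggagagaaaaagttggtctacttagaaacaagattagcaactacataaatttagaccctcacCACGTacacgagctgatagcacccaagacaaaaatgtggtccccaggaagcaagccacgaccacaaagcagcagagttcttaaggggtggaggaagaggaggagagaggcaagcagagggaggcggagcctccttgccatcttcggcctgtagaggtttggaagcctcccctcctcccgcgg
Ogdh: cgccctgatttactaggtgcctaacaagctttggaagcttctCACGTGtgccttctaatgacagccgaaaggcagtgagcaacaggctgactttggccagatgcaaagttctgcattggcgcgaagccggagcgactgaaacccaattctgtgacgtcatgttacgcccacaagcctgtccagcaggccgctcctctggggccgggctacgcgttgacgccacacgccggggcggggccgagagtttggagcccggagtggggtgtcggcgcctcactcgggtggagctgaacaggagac
The Ldha window held ACGTG 3 times, counting both strands of its CACGTG, at -87, -86 and -73 from the start. In Ogdh a CACGTG stood at -208, and in Pfkm a single match at -132. The Ldhb window held no match to these letters. Neither did the windows of Aco1 and Mdh2, the other called members, which are not shown.

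Of the 41 members, 39 had a promoter in the sequence table, all but Pgk1 and Idh3a. ACGTG was found in 17 of these 39 (43.6%), beside 19.7% of 27457 promoters and 24.3% of the promoters of tested genes. CACGTG was found in 5 (12.8%) beside 6.7% of all promoters and 8.9% of those of tested genes. The GC-box letters GGGCGG, searched on both strands, were found in 26 (66.7%) beside 34.9% and 56.7%. The member promoters had a median GC content of 62.3%, against 59.7% for tested genes and 52.3% for all promoters. A match of letters is a description and was not tied to the measured differences.

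Both lactate dehydrogenase genes differed from sham, in opposite directions. Ldha encodes the subunit common in muscle, which favours lactate formation, and Ldhb the subunit common in heart, which favours pyruvate. Ldha was 12.78, 12.64 and 12.85 in sham, 13.20, 13.29 and 13.46 in BPH, and 13.42, 13.34 and 13.38 in BPH+ghrelin. Every array of a castrated rat was above every sham array. Ldha rose by 0.56 (SE 0.12, adjusted p = 0.0422, 1.47-fold) in BPH and was 0.62 higher (SE 0.12, adjusted p = 0.0246) in BPH+ghrelin than in sham. Ldhb was 9.03, 9.45 and 9.11 in sham, 8.27, 8.15 and 8.12 in BPH, and 7.78, 8.11 and 8.51 in BPH+ghrelin. Here all sham arrays were the higher ones, without overlap. Ldhb fell by 1.01 (SE 0.20, adjusted p = 0.0355, 0.496-fold) in BPH, and its difference was -1.06 (SE 0.20, adjusted p = 0.0243) in BPH+ghrelin against sham. Between BPH+ghrelin and BPH the differences were 0.07 for Ldha (95% interval -0.21 to 0.34, adjusted p = 0.780) and -0.05 for Ldhb (-0.51 to 0.41, adjusted p = 0.909). With single arrays left out, each of these genes passed the threshold in 1 of 6 fits in BPH against sham. In that comparison Ldhb differed by -0.52 with the slide as a block, and Ldha by 0.30 after scaling to the 75th percentile, neither called.

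**Figure D2:**
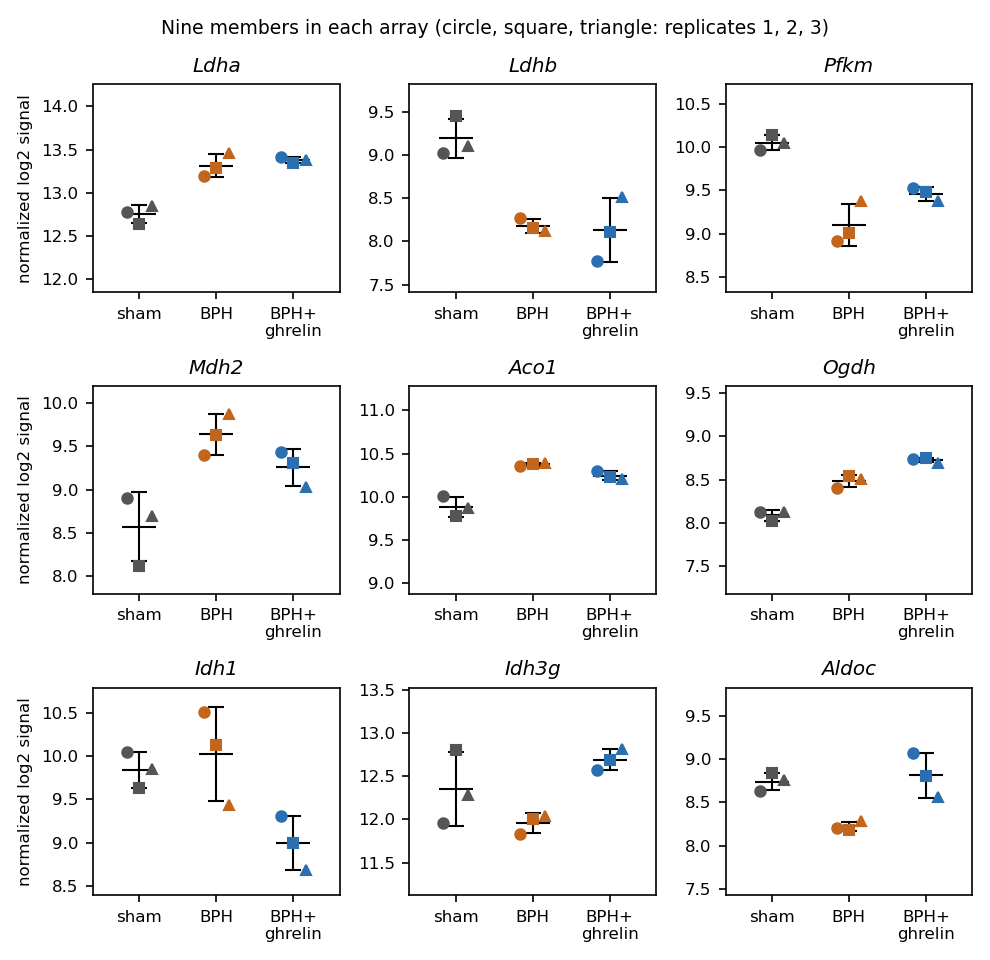
Log2 level on each array (points) and group mean with SD (lines) for 9 members, with circle, square and triangle for replicates 1, 2 and 3; every panel spans the same range of log2 units. Ldha, Ldhb, Pfkm, Mdh2, Aco1 and Ogdh separate BPH from sham without overlap; Idh1 on the 3 BPH+ghrelin arrays lies at 8.68 to 9.30, below the 3 BPH arrays.

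Of the 3 carriers, Slc2a1 imports glucose, Slc16a1 moves lactate and pyruvate across the cell membrane, and Slc25a1 exports citrate from mitochondria. All 3 were higher in BPH than in sham, and none passed the test. Slc16a1 was dim, at 3.76, 2.20 and 2.91 in sham, 4.12, 4.25 and 4.38 in BPH, and 4.14, 3.99 and 3.06 in BPH+ghrelin. Of the sham arrays, only sham replicate 1 was above background, and the gene entered this comparison through the BPH arrays. Its difference in BPH against sham was 1.30 (SE 0.41, adjusted p = 0.102), and 0.15 with normexp background correction. Slc25a1 was 5.91, 3.94 and 5.42 in sham, 6.02, 5.91 and 5.92 in BPH, and 6.27, 6.01 and 5.89 in BPH+ghrelin. The lone low value was that of sham replicate 2. The difference in BPH against sham was 0.86 (SE 0.43, adjusted p = 0.240), and much of it rests on that array. Slc2a1 was the steadier carrier, at 9.58 ± 0.12 in sham, 9.67 ± 0.09 in BPH and 9.91 ± 0.02 in BPH+ghrelin (SD, n = 3).

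In upper glycolysis, which primes glucose with phosphate and cuts it into trioses, 1 of 8 members (12.5%) was called in BPH against sham, beside 4.33% of all genes, and 0 in the other comparisons. Pfkm, the muscle-type subunit of the phosphofructokinase that commits sugar to glycolysis, was 9.97, 10.14 and 10.05 in sham, 8.91, 9.01 and 9.37 in BPH, and 9.53, 9.48 and 9.37 in BPH+ghrelin. The sham arrays were all above the rest. Pfkm fell by 0.95 (SE 0.15, adjusted p = 0.0148, 0.516-fold) in BPH, the smallest adjusted p of the members there. The lowest BPH+ghrelin level equalled the highest BPH level within rounding, with a difference of 0.36 from BPH (SE 0.15, adjusted p = 0.209) and of -0.59 from sham (SE 0.15, adjusted p = 0.0511). Pfkp, the platelet-type subunit gene, was 9.57, 9.74 and 9.58 in sham, 9.63, 9.60 and 9.57 in BPH, and 9.31, 9.35 and 9.56 in BPH+ghrelin, and its BPH and sham arrays overlapped. Pfkp and the liver-type Pfkl differed in BPH against sham by -0.03 (95% interval -0.30 to 0.24) and -0.15 (-0.39 to 0.09).

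The hexokinases phosphorylate glucose. Hk1 was 11.24, 11.51 and 11.39 in sham, 10.89, 10.90 and 10.80 in BPH, and 11.12, 10.98 and 10.84 in BPH+ghrelin. All sham levels were above all others, but its difference of -0.52 in BPH (SE 0.13, adjusted p = 0.0593) did not pass. Hk2, the inducible form, was 7.10, 6.20 and 6.93 in sham, 6.94, 7.19 and 7.44 in BPH, and 7.26, 7.23 and 7.01 in BPH+ghrelin. Its BPH arrays overlapped the sham arrays, and the difference was 0.45 (SE 0.24, adjusted p = 0.275), much of which rests on the low level of sham replicate 2. Gpi, which isomerises glucose 6-phosphate, differed by 0.14 in BPH against sham (SE 0.21).

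Aldolase splits fructose bisphosphate. Aldoa, the widespread form, was 9.59, 7.91 and 9.19 in sham, 9.83, 9.87 and 9.91 in BPH, and 9.79, 9.52 and 9.14 in BPH+ghrelin. The sham spread is carried by sham replicate 2, and the difference of 0.98 in BPH (SE 0.39, adjusted p = 0.163) was 0.48 without that array. Aldoc, the form known from brain, was 8.63, 8.83 and 8.75 in sham, 8.21, 8.18 and 8.28 in BPH, and 9.07, 8.80 and 8.56 in BPH+ghrelin. The BPH arrays were the lowest, with -0.52 against sham (SE 0.15, adjusted p = 0.0846) and 0.59 in BPH+ghrelin against BPH (SE 0.15, adjusted p = 0.0927). A second and dimmer Aldoc probe gave 0.23 in BPH against sham, the opposite sign, and 0.23 in BPH+ghrelin against BPH, so the first of these differences is not shared by both probes.

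Lower glycolysis, from triose phosphate to pyruvate, held 7 members, none of which was called in any comparison. All 7 were higher in BPH+ghrelin than in sham, and 4 of them (57.1%) did not overlap beside 30.4% of all genes. Their median log2 difference was 0.50, the value of Pkm; without sham replicate 2 it was 0.28 and that of Pkm 0.11, while without BPH+ghrelin replicate 2 or without sham replicate 3, 6 of the 7 were higher. Gapdh, the dehydrogenase often used as a reference transcript, was 11.65, 11.24 and 11.48 in sham, 11.17, 11.42 and 11.93 in BPH, and 12.24, 12.01 and 11.92 in BPH+ghrelin. The highest BPH array reached the BPH+ghrelin range, and Gapdh differed by 0.55 in BPH+ghrelin against BPH (SE 0.21, adjusted p = 0.197) and by 0.60 against sham (SE 0.21, adjusted p = 0.135). Its other probes gave 0.37 and 0.29 in BPH+ghrelin against BPH, in the same direction. In BPH against sham the 3 Gapdh probes gave 0.05, 0.28 and 0.52.

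Pgam1, Eno1, Pgk1 and Tpi1 all had their lowest mean in sham and their highest in BPH+ghrelin, without passing the test. Pgam1, which moves the phosphate of phosphoglycerate, was 13.20 ± 0.25 in sham, 13.52 ± 0.28 in BPH and 13.81 ± 0.17 in BPH+ghrelin (SD, n = 3), and was 0.61 higher in BPH+ghrelin than in sham (adjusted p = 0.0997). Eno1, the general enolase, was 10.15, 10.20 and 10.05 in sham, 10.13, 10.46 and 10.74 in BPH, and 10.71, 10.59 and 10.61 in BPH+ghrelin, whose arrays were all above sham, with a difference of 0.51 (adjusted p = 0.105). Pgk1, which makes the first ATP of this segment, differed by 0.31 and triose phosphate isomerase Tpi1 by 0.30 in BPH+ghrelin against sham. Eno2, the neuronal enolase, was 5.40, 5.35 and 5.29 in sham, 5.00, 5.02 and 5.39 in BPH, and 5.23, 5.46 and 5.39 in BPH+ghrelin, and its groups overlapped. Pyruvate kinase Pkm differed by 0.50 in BPH+ghrelin against sham (SE 0.32), and its second probe was above background on 0 arrays.

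The pyruvate dehydrogenase complex and its kinases had 6 members, and none was called. Differences in BPH against sham ran from -0.00 for Dld, the dehydrogenase subunit shared with oxoglutarate dehydrogenase, to 0.36 for Dlat, the acetyltransferase core (SE 0.15, adjusted p = 0.167). The catalytic subunit genes Pdha1 and Pdhb differed by 0.07 and 0.18. Pdk1, a kinase that shuts the complex off and a known hypoxia target, was 7.39, 7.49 and 7.36 in sham, 7.62, 7.69 and 7.99 in BPH, and 7.93, 7.82 and 7.90 in BPH+ghrelin. Its sham arrays were below all the others, and it was 0.47 higher in BPH+ghrelin than in sham (SE 0.13, adjusted p = 0.0727). Pdk2, the broadly expressed kinase, was 8.38, 8.18 and 8.40 in sham, 8.54, 8.38 and 8.26 in BPH, and 8.26, 8.19 and 7.97 in BPH+ghrelin, with overlap between sham and both other groups. None of the 6 differed by more than 0.28 in either direction between BPH+ghrelin and BPH.

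Around citrate and isocitrate, Aco1 was called in BPH against sham. Aco1 encodes cytosolic aconitase, which turns into an iron-responsive RNA-binding protein when it loses its iron-sulphur cluster. Aco1 was 10.01, 9.77 and 9.87 in sham, 10.36, 10.38 and 10.39 in BPH, and 10.30, 10.22 and 10.21 in BPH+ghrelin. The BPH arrays lay within 0.03 of each other, and every array of a castrated rat was above every sham array. Aco1 rose by 0.49 (SE 0.11, adjusted p = 0.0468, 1.41-fold) in BPH and differed by 0.36 (adjusted p = 0.0906) in BPH+ghrelin against sham. The call is close to the threshold, and 1 of 6 fits with an array left out kept it. Cs, citrate synthase, was 10.63, 10.63 and 10.47 in sham, 10.45, 10.45 and 10.92 in BPH, and 11.20, 11.08 and 11.02 in BPH+ghrelin. The BPH+ghrelin arrays were above all the others, with differences of 0.49 from BPH (SE 0.15, adjusted p = 0.137) and 0.52 from sham (SE 0.15, adjusted p = 0.0848).

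The isocitrate dehydrogenases did not move together. Idh1, the cytosolic and peroxisomal form that makes NADPH, was 10.05, 9.63 and 9.85 in sham, 10.51, 10.12 and 9.43 in BPH, and 9.30, 8.99 and 8.68 in BPH+ghrelin. All BPH+ghrelin arrays were below all others, and BPH itself spread widely. Idh1 differed by -1.03 in BPH+ghrelin against BPH (SE 0.28, adjusted p = 0.104) and by -0.85 against sham (SE 0.28, adjusted p = 0.115), the lowest value of the members in the first of these. Without BPH replicate 3, whose Idh1 level was the lowest of its group, the difference was -1.33 (adjusted p = 0.0442). Idh2, the mitochondrial NADPH-making form, was 13.11, 12.96 and 13.02 in sham, 13.14, 13.25 and 13.51 in BPH, and 13.62, 13.49 and 13.32 in BPH+ghrelin, with sham the lowest group.

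The NAD-dependent enzyme of the cycle is built from the products of Idh3a, Idh3b and Idh3g. Idh3g, a regulatory subunit gene, was 11.95, 12.80 and 12.29 in sham, 11.83, 12.01 and 12.04 in BPH, and 12.57, 12.69 and 12.82 in BPH+ghrelin. BPH and BPH+ghrelin did not overlap, while sham reached across both, and the difference between BPH+ghrelin and BPH was 0.73 (SE 0.21, adjusted p = 0.113). Idh3a, the catalytic subunit gene, was 5.08, 3.13 and 4.56 in sham, 5.21, 5.16 and 5.61 in BPH, and 5.32, 4.82 and 4.45 in BPH+ghrelin. Sham replicate 2 was again the low array, and the difference of 1.07 in BPH against sham (SE 0.47, adjusted p = 0.189) was 0.51 without it and 0.32 with normexp background correction. Idh3b, the other regulatory subunit gene, differed by 0.05 in BPH against sham and by -0.12 in BPH+ghrelin against BPH.

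From oxoglutarate to oxaloacetate, Mdh2 was called in BPH against sham and Ogdh in BPH+ghrelin against sham. Ogdh, the first subunit of the oxoglutarate dehydrogenase complex, was 8.12, 8.02 and 8.12 in sham, 8.41, 8.54 and 8.50 in BPH, and 8.74, 8.75 and 8.70 in BPH+ghrelin. The 3 groups did not overlap and stood in the order sham, BPH, BPH+ghrelin. Ogdh rose by 0.64 in BPH+ghrelin against sham (SE 0.10, adjusted p = 0.0147, 1.56-fold), while its differences of 0.40 in BPH against sham (SE 0.10, adjusted p = 0.0703) and 0.24 in BPH+ghrelin against BPH (SE 0.10, adjusted p = 0.235) did not pass. Its partner subunit gene Dlst differed by 0.07 in BPH+ghrelin against sham (95% interval -0.40 to 0.54).

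Mdh2, the mitochondrial malate dehydrogenase, was 8.90, 8.12 and 8.69 in sham, 9.40, 9.64 and 9.87 in BPH, and 9.44, 9.31 and 9.02 in BPH+ghrelin. All arrays of castrated rats were above the sham arrays, and sham replicate 2 was the lowest. Mdh2 rose by 1.07 (SE 0.23, adjusted p = 0.0420, 2.10-fold) in BPH and differed by 0.69 (adjusted p = 0.113) in BPH+ghrelin against sham. Without sham replicate 2 the BPH difference was 0.84 and called, and 2 of 6 fits with an array left out kept the call. The cytosolic form Mdh1 was 11.74, 12.07 and 11.94 in sham, 11.59, 11.89 and 12.03 in BPH, and 11.53, 11.73 and 11.85 in BPH+ghrelin. Its groups overlapped, and it differed by -0.08 in BPH against sham (95% interval -0.45 to 0.29).

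The succinyl-CoA ligase subunit genes spread in both directions. Suclg2, the GTP-specific subunit gene, was 12.79, 12.20 and 12.63 in sham, 11.997, 12.17 and 12.30 in BPH, and 12.11, 11.93 and 11.84 in BPH+ghrelin, whose arrays were all below sham, with a difference of -0.58 (adjusted p = 0.0911). Suclg1, the subunit gene common to both ligases, differed by 0.43 in BPH+ghrelin against sham (adjusted p = 0.169). Sucla2, the ATP-specific subunit gene, was 12.56, 12.70 and 12.63 in sham, 13.01, 12.83 and 12.77 in BPH, and 12.48, 12.67 and 12.72 in BPH+ghrelin, with its BPH arrays the highest. Fh, fumarase, differed by 0.08 in BPH+ghrelin against sham (SE 0.18).

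**Figure D3:**
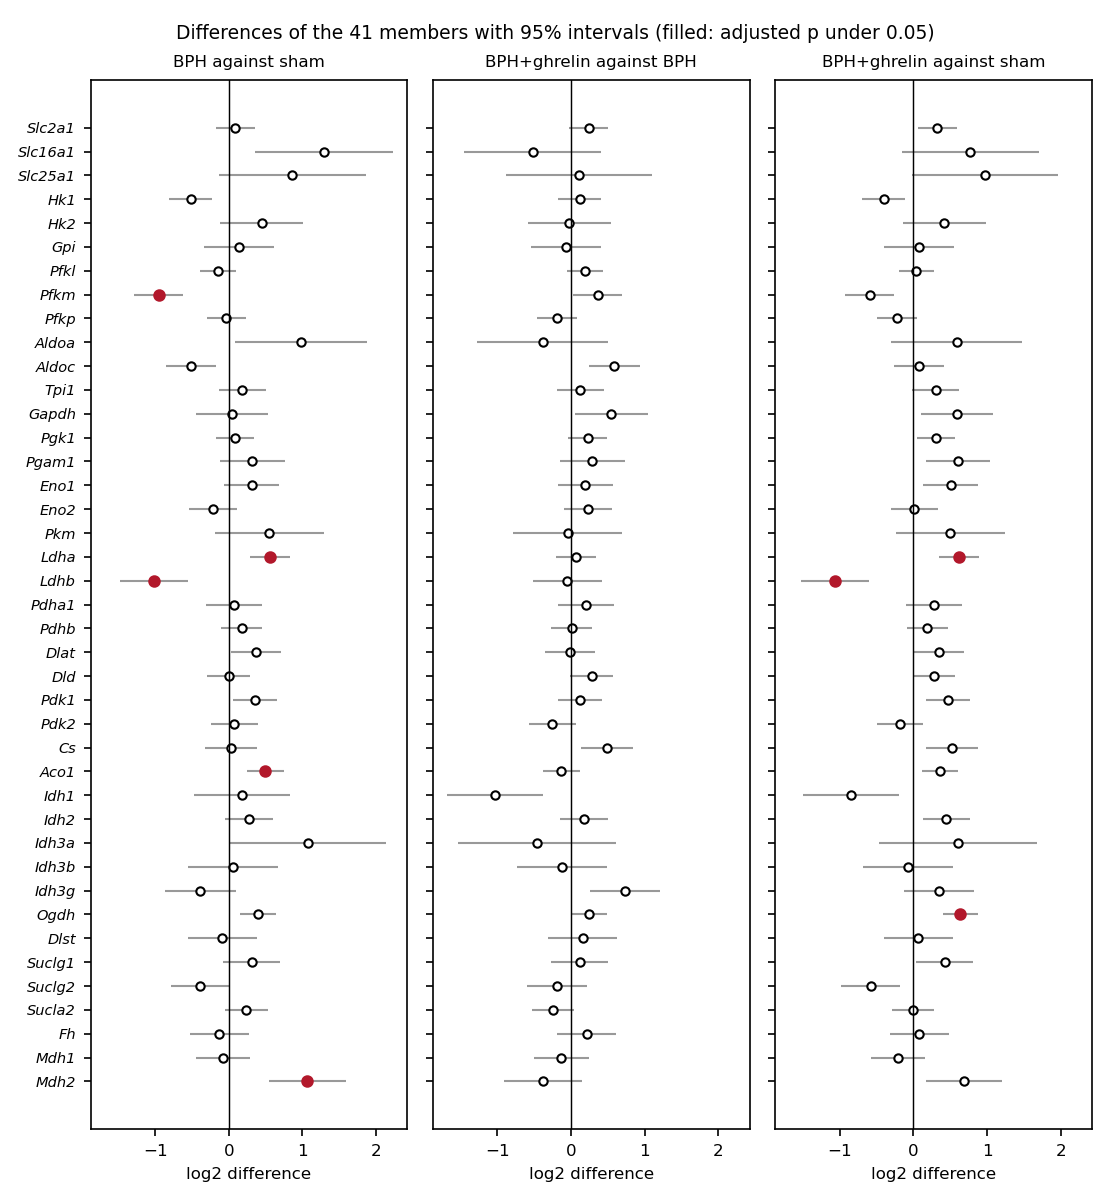
Log2 difference with its 95% interval for all 41 members in the 3 comparisons, in pathway order, with filled points for an adjusted p under 0.05. There are 5 filled points in BPH against sham, 0 in BPH+ghrelin against BPH and 3 in BPH+ghrelin against sham, and the widest intervals belong to Idh3a, Slc25a1 and Slc16a1.

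Where a step is served by genes for alternative forms, the change of one relative to the other was followed on each array, set to 0 at the sham mean. This shows unequal change and not which form is more abundant, and with 3 arrays against 3 a two-sided exact permutation test cannot go below p = 0.1, so no test was made. Ldha over Ldhb stood at 1.36, 1.57 and 1.78 in BPH and 2.07, 1.67 and 1.31 in BPH+ghrelin, against -0.37 to 0.19 in sham. That pair had the largest shift in both groups. Pfkp over Pfkm separated all 3 groups, at -0.05 to 0.03 in sham, 0.62 to 1.14 in BPH and 0.21 to 0.61 in BPH+ghrelin, with BPH and BPH+ghrelin close to touching. Hk2 over Hk1 averaged 0.96 ± 0.30 in BPH and 0.82 ± 0.06 in BPH+ghrelin (SD, n = 3), with no overlap with sham.

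The isocitrate dehydrogenase pair behaved differently. Idh1 over Idh2 was 0.55, 0.06 and -0.89 in BPH and -1.12, -1.31 and -1.46 in BPH+ghrelin, a difference between those groups of -1.21 with no overlap. Aldoc over Aldoa was -1.49 ± 0.04 in BPH and -0.52 ± 0.08 in BPH+ghrelin, but ran from -0.80 to 1.08 within sham. Mdh1 over Mdh2 averaged -1.15 in BPH and -0.90 in BPH+ghrelin, and Eno2 over Eno1 -0.52 and -0.49, all without overlap with sham. Pdk1 over Pdk2 averaged 0.28 and 0.65, and for Suclg2 over Sucla2, at -0.62 and -0.57, every group overlapped with every other.

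**Figure D4:**
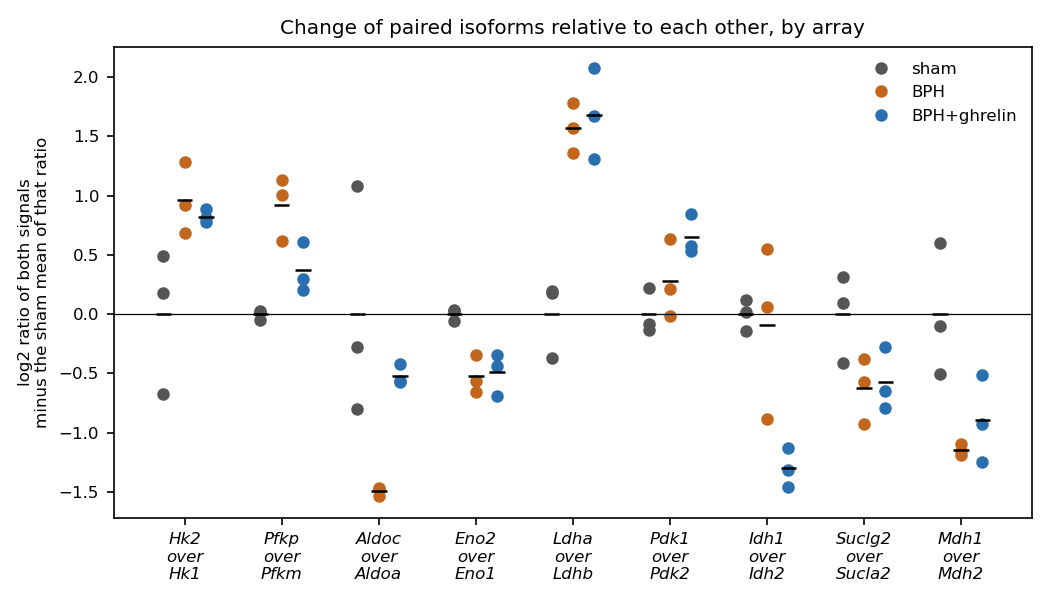
Change of one member relative to its alternative form on each array, as the difference of log2 levels minus the sham mean; points are arrays, short lines are group means and the 0 line is the sham mean. Ldha over Ldhb lies at 1.31 to 2.07 on the 6 arrays of castrated rats, and Idh1 over Idh2 lies at -1.46 to -1.12 on the BPH+ghrelin arrays, below the other 6.

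The slides allowed part of the comparison within one scan. These arrays are also in the fits, so the values are not independent of them. On the slide with BPH+ghrelin replicate 1 and the 3 BPH arrays, Idh1 differed by -0.72, Idh3g by 0.61, Cs by 0.59 and Aldoc by 0.85, from 1 array of BPH+ghrelin. On the slide with BPH+ghrelin replicates 2 and 3 and sham replicates 1 and 2, Ldha differed by 0.65, Ldhb by -0.93 and Ogdh by 0.65. BPH against sham had no such value, so slide and group cannot be told apart in it except through the BPH+ghrelin arrays.

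Among 51 other genes of these pathways, 38 were tested in BPH against sham, where 1 rose and 3 fell, which is 10.5% beside 4.33% of all genes. In BPH+ghrelin against BPH limma called 0 of 38, beside 1.48% of all genes, and 6 (15.8%) had an unadjusted p under 0.05 beside 21.1%. In BPH+ghrelin against sham 1 of 37 rose and 2 fell, which is 8.11% beside 6.3% of all genes. Fbp2, the muscle fructose bisphosphatase that opposes phosphofructokinase, had the largest difference. It was 10.61, 11.33 and 10.83 in sham, 7.24, 6.61 and 5.71 in BPH, and 6.07, 6.05 and 6.08 in BPH+ghrelin. Fbp2 fell by 4.40 in BPH (SE 0.36, adjusted p = 0.00132) and by 4.86 in BPH+ghrelin against sham (SE 0.36, adjusted p = 0.000567), and it was called in 15 of 16 and 16 of 16 alternative analyses, the exception being the slide block.

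Further genes of that list lie next to the members in the pathway. Eno3, the muscle enolase, was 8.57, 9.04 and 8.72 in sham, 7.79, 7.78 and 7.95 in BPH and 8.28, 8.21 and 8.21 in BPH+ghrelin, and fell by 0.94 in BPH (SE 0.14, adjusted p = 0.0146). Slc16a3, a lactate exporter, fell by 1.08 in BPH (SE 0.24, adjusted p = 0.0466). Got1, the cytosolic aspartate aminotransferase of the malate-aspartate shuttle, rose by 0.91 in BPH (SE 0.19, adjusted p = 0.0415). Against sham, BPH+ghrelin had Pfkfb4, which makes an activator of phosphofructokinase, higher by 1.11 (SE 0.23, adjusted p = 0.0332) and Pck2, the mitochondrial phosphoenolpyruvate carboxykinase, lower with a difference of -0.53 (SE 0.11, adjusted p = 0.0294). With single arrays left out, 4 of 6 fits kept the call of Eno3, 3 of 6 that of Got1, 2 of 6 that of Pck2, and 1 of 6 those of Slc16a3 and Pfkfb4. With normexp background correction Pfkfb4 differed by 0.27, without a call, and Slc16a3 by -0.64.

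**Figure D5:**
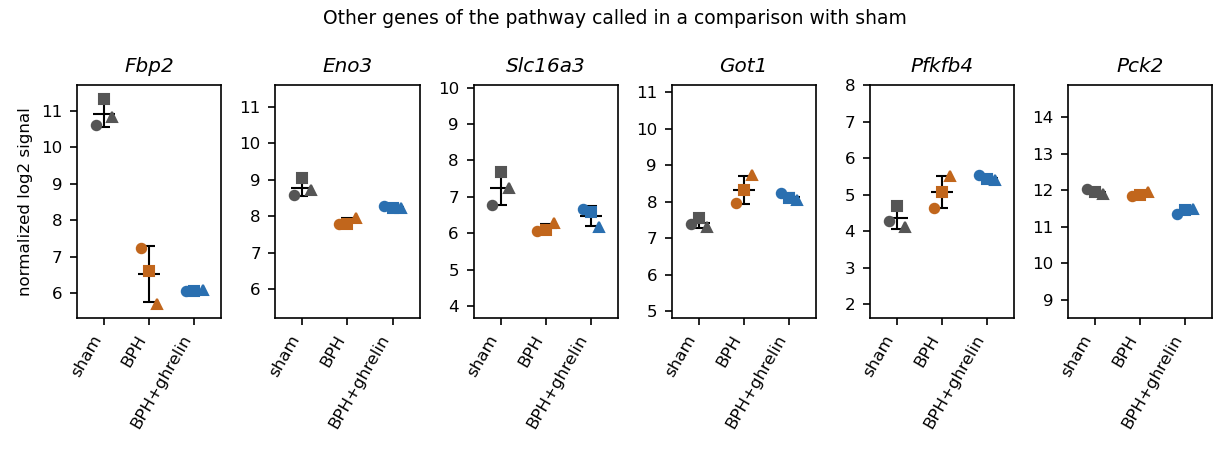
Log2 levels on each array for Fbp2, Eno3, Slc16a3, Got1, Pfkfb4 and Pck2 (points) with group means and SD (lines); every panel spans the same range of log2 units. Fbp2 is at 10.61 or more on the sham arrays and at 7.24 or less on the other 6, and Pck2 is lowest on the BPH+ghrelin arrays, at 11.35 to 11.48.

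A further list held 16 genes of hypoxia and growth signalling, both regulators and known targets. In BPH against sham 15 were tested, 13 were higher, limma called 0 beside 4.33% of all genes, and 1 (6.67%) had an unadjusted p under 0.05 beside 26.5%. In BPH+ghrelin against BPH, 1 of 15 (6.67%) was called beside 1.48% of all genes, 12 of 15 were lower, 8 (53.3%) had no overlap between the groups beside 39.2%, and 3 (20%) had an unadjusted p under 0.05 beside 21.1%. The called gene was Egln3, a prolyl hydroxylase that marks hypoxia-inducible factors for breakdown and is itself induced by them, at 5.69, 5.53 and 5.68 in sham, 5.65, 5.63 and 5.90 in BPH, and 5.09, 4.95 and 4.75 in BPH+ghrelin. Egln3 fell by 0.79 against BPH (SE 0.14, adjusted p = 0.0390) and by 0.70 against sham (SE 0.14, adjusted p = 0.0262), and 0 of 6 fits with an array left out kept the first of these calls and 2 of 6 the second. With normexp background correction its differences were -0.33 and -0.26, and neither was called. Hif1a itself differed by -0.86 in BPH+ghrelin against BPH (SE 0.45, adjusted p = 0.310).

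Muscle-type genes of these pathways went both ways in BPH against sham, where striated muscle markers were mostly lower. Pfkm, Eno3 and Fbp2 were called lower. Ldha, whose subunit is common in muscle, was called higher by 0.56, and the muscle-type Pgam2 was 0.39 higher, with overlap and no call. Of the 6 striated muscle markers 5 were tested in BPH against sham, and 4 were lower, with a median log2 difference of -0.62. Between the groups 2 of the 5 (40%) did not overlap beside 31.3% of all genes, which is near the background. Of the 5, 1 (20%) was called beside 4.33% of all genes. The called marker was Ckm, the muscle creatine kinase, which fell by 1.90 in BPH (SE 0.21, adjusted p = 0.00450). The fast muscle light chain gene Myl11 was 6.19, 4.24 and 5.77 in sham and 3.88, 3.92 and 3.60 in BPH, a difference of -1.60 (adjusted p = 0.0747). Acta1 was 0.54 higher without a call, and Myh4 was above background on 0 arrays. The summed signal was 317 to 499 in sham, 254 to 476 in BPH and 281 to 306 in BPH+ghrelin, so that BPH overlapped both other groups and BPH+ghrelin lay below sham. The summed signal of 2 measured markers of cycling cells was 247 to 572 in sham, 288 to 1167 in BPH and 1200 to 2121 in BPH+ghrelin. All 5 smooth muscle markers were lower in BPH+ghrelin against BPH, with 1 called, Myh11 (-0.96, adjusted p = 0.0160), beside 1.48% of all genes. The fibroblast marker Lum (-1.65, adjusted p = 0.0240) and the leukocyte marker Ptprc (-0.82, adjusted p = 0.0368) also fell there, each the 1 called marker of its list. The fat marker Adipoq was 3.28 on sham replicate 1 and 0.58 on BPH+ghrelin replicate 1, where it was not above background, against 9.99 to 12.03 on the other arrays. The part of tissue content or cycling in the levels of the glycolysis genes was not tested.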

How the data were processed

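Gene expression had been measured in rat prostates with Agilent one-colour arrays, and each array took its group from its sample label. The intensities deposited by the authors came from Feature Extraction 11.0.1.1, which subtracted background, and were linear and not normalized between arrays. The log2 matrix deposited by the authors, quantile normalized in GeneSpring GX 12.1 per their notes, was used only as an alternative. Outlier spots were removed, spots of a probe averaged, and the log2 signals quantile normalized over 9 arrays. Accessions matched a RefSeq symbol for 17998 of 30356 probes. A probe entered a comparison if 3 or more of its 6 arrays were well above background, and the brightest such probe stood for its gene; "all genes" includes probes with no symbol, by accession.

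Differences were fitted with limma 3.58.1 (R 4.3.3; lmFit, eBayes, 3 groups sharing one spread, Benjamini-Hochberg). The code was tested on simulated data. Members and lists were chosen with earlier results of these data known. Values per array are given for members called in any comparison and for the 5 with the largest difference in each. They are also given for genes of alternative forms and for Cs, picked after its values were seen. Hypoxia and growth genes and pathway neighbours come from listed symbols. Those named were the called ones plus Hif1a and Pgam2, which were picked after their values were seen. Alternatives changed scaling, background correction, filter, probe choice, arrays fitted, blocks and the array set. Arrays limit precision by their number, 3 per group, and none held a saturated spot.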

Additional observations from a re-analysis of the deposited data

How the results depend on the processing

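Single members were followed through the alternatives if they were called or had one of the 5 largest differences of a comparison. None of these changed sign, nor did any pathway neighbour or hypoxia gene that was followed. Other members did change sign, as the counts of members higher given below show. In BPH against sham, the 5 calls became 3 after scaling each array to its 75th percentile, 1 with no filter on dim probes, and 0 with the 6 arrays compared alone or with the slide as a block, 7 with normexp background correction, 6 with the filter on all 6 arrays or with trend and robust eBayes, stayed 5 with the mean of a gene's probes or the deposited matrix, and ran from 0 to 8 with single arrays left out. The 75th percentile scaling moved the median of all genes from 0.04 to -0.09 and that of the members to 0.008, with 21 of 41 members higher in place of 28; in BPH+ghrelin against BPH, it moved the all-gene median from 0.02 to 0.10 and the members higher from 24 to 31. The 0 calls in BPH+ghrelin against BPH became 1 with those 6 arrays alone, and ran from 0 to 1 with single arrays left out. In BPH+ghrelin against sham, the 3 calls became 0 with the slide as a block, 2 with those 6 arrays alone, 4 with the 75th percentile scaling, normexp, the filter on all 6 arrays, the deposited matrix or trend and robust eBayes, and ran from 0 to 4 with single arrays left out. Samples that share a replicate number did not deviate together in every pair, with correlations of their deviations from -0.12 to 0.28. With 3 arrays per group this can neither show nor exclude a pairing by number, and the main fits took none. With a replicate block the calls were 0 in BPH against sham and 0 in BPH+ghrelin against sham. The cause of these changes was not tested. Alternatives for pathway neighbours and hypoxia genes, the epithelial sum without Pbsn and the lower glycolysis values with an array left out were chosen after seeing the data. Dim probes such as Slc16a1 and Idh3a limit what their levels can show.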
